A study of Homo sapiens with 4 samples.

Results

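The 10 genes described here are genes that androgen is known to induce in prostate cells, other than the kallikreins: TMPRSS2, FKBP5, SLC45A3, STEAP4, NDRG1, ABCC4, TRPM8, PMEPA1, CAMKK2 and MAF. They were measured by RNA sequencing in LNCaP, an established human prostate cancer line grown from a lymph node metastasis, transfected with a CRYM expression vector (2 libraries) or with the matching empty pReceiver-M72 vector (2 libraries). All 4 libraries came from cells at passage 22 in RPMI with 10% fetal calf serum. The cells received 2500 ng of plasmid with 12 µL of Lipofectamine 2000 and gave RNA at 48 h, with GFP followed in the cultures. No added androgen or androgen blocker is named in the labels, so hormone came from the serum alone as far as they say. Transfection was transient and the share of cells that took up plasmid is not given, so each value averages transfected and other cells. The replicates are called biological, but nothing says that they came from separate cultures. The p-values below therefore measure the spread between these libraries.

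Androgen enters luminal prostate cells and binds a nuclear receptor, which then binds response elements in enhancers and promoters and raises transcription of nearby genes. The induced genes encode surface proteases, transporters and channels of the differentiated luminal cell, a co-chaperone that feeds back on the receptor complex, and regulators of metabolism and growth. Their RNA levels are widely used as a readout of androgen signalling in LNCaP. The CRYM product, mu-crystallin, is a ketimine reductase of the cytosol to which thyroid hormone binds.

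A gene was taken by its symbol in the deposited tables or, failing that, as the assembled locus with the highest overlap over union, at least 0.4, with the gene's hg19 span. MAF was the 1 gene listed under its symbol in the tables, and the other 9 were matched by span. Each of the 9 lay between named loci that RefSeq places on either side of the gene, but 3 to 22 other RefSeq genes lie in the same gaps, so the position is the main ground for each match. In the CRYM vector libraries 10 genes were found, and in the empty vector libraries 9, among 96477 and 103044 loci listed in the CRYM vector libraries and 89428 and 92898 in the empty vector libraries. Of these, 52318 are at the same position in all 4. Among loci whose assembled ends differ between libraries, only those of the 10 genes and of the gene lists below were added to them. The shares over all tested loci therefore leave out other loci with differing ends. Printed positions are the outermost over the libraries. Levels are FPKM, fragment counts scaled to transcript length and library size. Comparing them between genes or libraries assumes that the lengths used were right, which was not tested. Of the 10 genes, 7 entered the test. Testing required 2 or more libraries at 1 FPKM or above and, in each of the 4, the status OK. STEAP4 was below that level, ABCC4 had the status FAIL in 1 library, and SLC45A3 had no locus of its own in the empty vector libraries.

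CRYM itself had 65.3 and 72.5 FPKM in the CRYM vector libraries, against 1.17 and 0.977 in the empty vector libraries, so it was higher where the labels place the vector. The luminal factor HOXB13 was present at 110.3 and 114.1 FPKM in CRYM vector libraries and at 128.4 and 127.7 in empty vector libraries. HOXB13 was the 1 of 9 luminal markers with a name in the tables. None of 4 basal and 6 fibroblast markers had one, so these lists were not checked. Of 4 endothelial markers CLDN5 was named, at 0.235 and 0.136 FPKM in CRYM vector libraries and 0.275 and 0.211 in empty vector libraries. The neuroendocrine marker INSM1 was at 0 and 0.0138 FPKM in CRYM vector libraries and listed at 0 in both empty vector libraries. Relative to empty vector library 1, depth was 0.842 in CRYM vector library 1, 1.07 in CRYM vector library 2 and 1.15 in empty vector library 2.

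Of the 7 tested genes, 5 were lower in CRYM vector cells (TMPRSS2, TRPM8, FKBP5, PMEPA1 and MAF), none was higher, and 2 did not pass (NDRG1 and CAMKK2), by limma with Benjamini-Hochberg adjustment over 10095 loci. Among all tested loci 17.7% were called lower and 15.7% higher, 33.3% in either direction. The median log2 difference, CRYM vector minus empty vector on log2(FPKM + 1), was -1.08 over the 7 genes and 0.01 over all tested loci. In 6 of the 7 both CRYM vector values lay below both empty vector values, as they did at 35.3% of all tested loci. In bulk RNA, fewer cells that express a gene and less RNA per cell cannot be told apart.

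**Figure D1:**
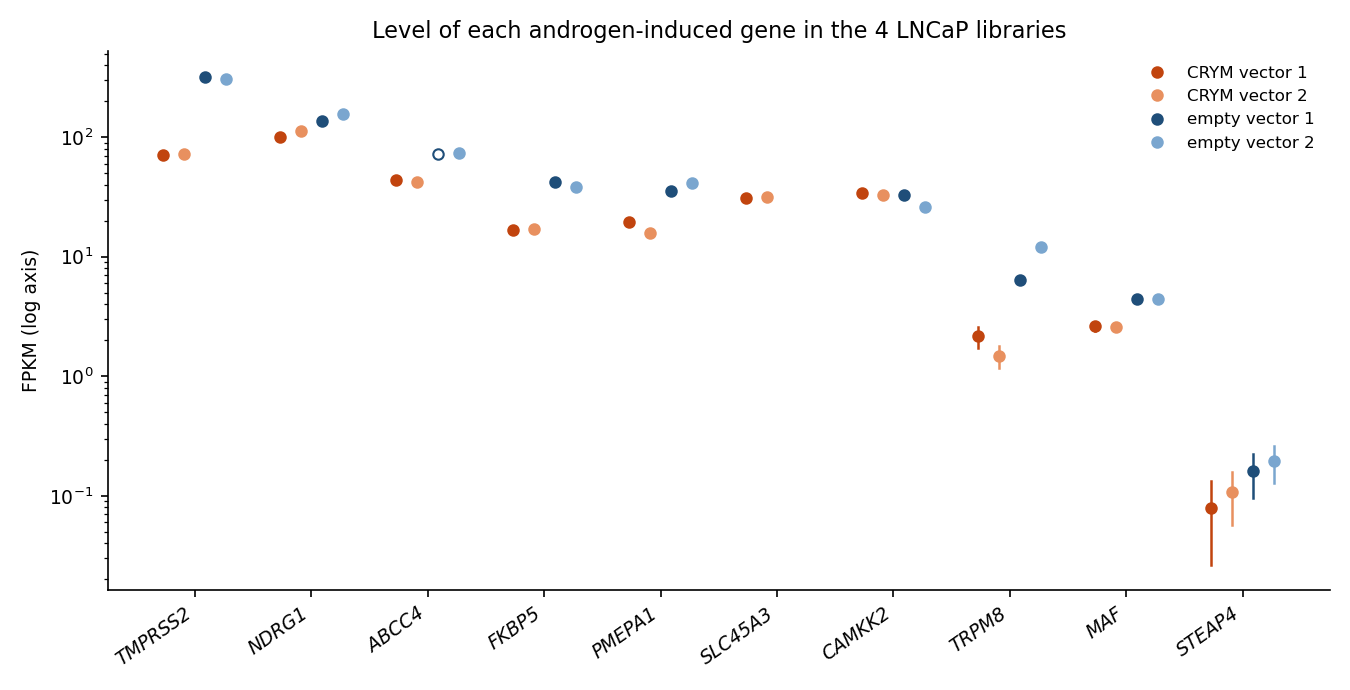
FPKM (log axis) of the 10 genes in 2 CRYM vector libraries (orange) and 2 empty vector libraries (blue), with the deposited intervals as vertical lines. TMPRSS2 sits at 71.5 and 71.8 in CRYM vector libraries and at 317.5 and 305.4 in empty vector libraries. The open circle is the ABCC4 value with the status FAIL, and SLC45A3 has no locus of its own in empty vector libraries.

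The 2 largest falls among the tested genes were at genes for cell surface proteins, TMPRSS2 and TRPM8. TMPRSS2 encodes a transmembrane serine protease of luminal prostate cells, and its androgen-driven promoter is a frequent partner in prostate cancer gene fusions. Its locus (hg19 chromosome 21, 42836478 to 42903043) had 71.5 and 71.8 FPKM in CRYM vector libraries, against 317.5 and 305.4 in empty vector libraries. The values within a group were close and the groups were far apart, with means of 71.7 ± 0.233 and 311.5 ± 8.53 FPKM (SD, n = 2 each). It was 4.35-fold lower, between 4.25-fold and 4.44-fold over the 4 pairs of libraries, with a log2 difference of -2.10 (SE 0.0296) and a limma adjusted p of 0.00237. Of all tested loci, 1.00% had a more negative difference. Among 232 loci at least as abundant as TMPRSS2 in empty vector cells, 3 including TMPRSS2 had a difference as low. The locus reaches past the span used to find it, with an overlap over union of 64.9%. Fragment numbers read from the deposited intervals as counting error did not fall with the FPKM of TMPRSS2, but they are not counts of reads.

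TRPM8, a cation channel opened by cold and menthol, fell most in relative FPKM and was the least even between replicates. Its locus (hg19 chromosome 2, 234826043 to 234928166) had 2.17 and 1.49 FPKM in CRYM vector libraries, against 6.44 and 12.0 in empty vector libraries. On a linear scale the empty vector libraries differed from each other by more than the lower of them differed from the higher CRYM vector library, although the groups did not overlap. The means were 1.83 ± 0.482 and 9.20 ± 3.90 FPKM (SD, n = 2 each), a 5.04-fold difference that ran from 2.97-fold to 8.05-fold over pairs of libraries. The log2 difference was -1.81 (SE 0.354) with a limma adjusted p of 0.0441. This call was lost with a pseudocount of 5 FPKM, without the filter on low values and on rescaling to the same total, with limma adjusted p of 0.0575, 0.0908 and 0.0548 and a range of 0.0406 to 0.147 over all its alternatives.

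ABCC4, an exporter of cyclic nucleotides and drug conjugates also called MRP4, had 43.4 and 42.1 FPKM in CRYM vector libraries, against 72.0 and 73.7 in empty vector libraries. Both CRYM vector values were lower, and the mean was 1.70-fold lower. The first empty vector value carries the status FAIL and an interval of 0 to 1.94 that does not hold it, so the gene was left out of the test. With every status kept, the log2 difference was -0.76 (SE 0.0306) with a limma adjusted p of 0.00562. With that library left out it was -0.77 with a limma adjusted p of 0.0677. The locus is the widest of the 10 (hg19 chromosome 13, 95672049 to 95953687).

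STEAP4, a metalloreductase that takes up iron and copper, was near the bottom of the measured range. It had 0.0792 and 0.108 FPKM in CRYM vector libraries, against 0.160 and 0.195 in empty vector libraries. The CRYM vector values were the lower ones, but their deposited intervals overlapped those of the empty vector libraries. Tested without the filter on low values, the log2 difference was -0.11 (SE 0.0318) with a limma adjusted p of 0.185, a difference not detectable at this level.

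SLC45A3 encodes prostein, a transporter-like membrane protein largely restricted to prostate epithelium. Its locus (hg19 chromosome 1, 205626979 to 205649587) had 31.0 and 31.3 FPKM in CRYM vector libraries. In both empty vector libraries the assembler listed instead 1 merged locus, 205577071 to 205649587, at 54.2 and 52.1 FPKM. The merged locus takes in a second locus that the CRYM vector libraries list apart, 205577071 to 205601090, at 16.3 and 15.7 FPKM. The tables give that second locus no name, and RefSeq places ELK4 next to SLC45A3. Summed over both loci the CRYM vector libraries had 47.3 and 47.0 FPKM, 0.887 of the mean of the merged locus in empty vector libraries. The share of SLC45A3 in the merged value is unknown, so no difference is given for the gene. Read-through transcripts from SLC45A3 into ELK4 are known in prostate cancer cells, but the tables list loci and not transcripts, and whether one spans these loci was not tested.

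**Figure D2:**
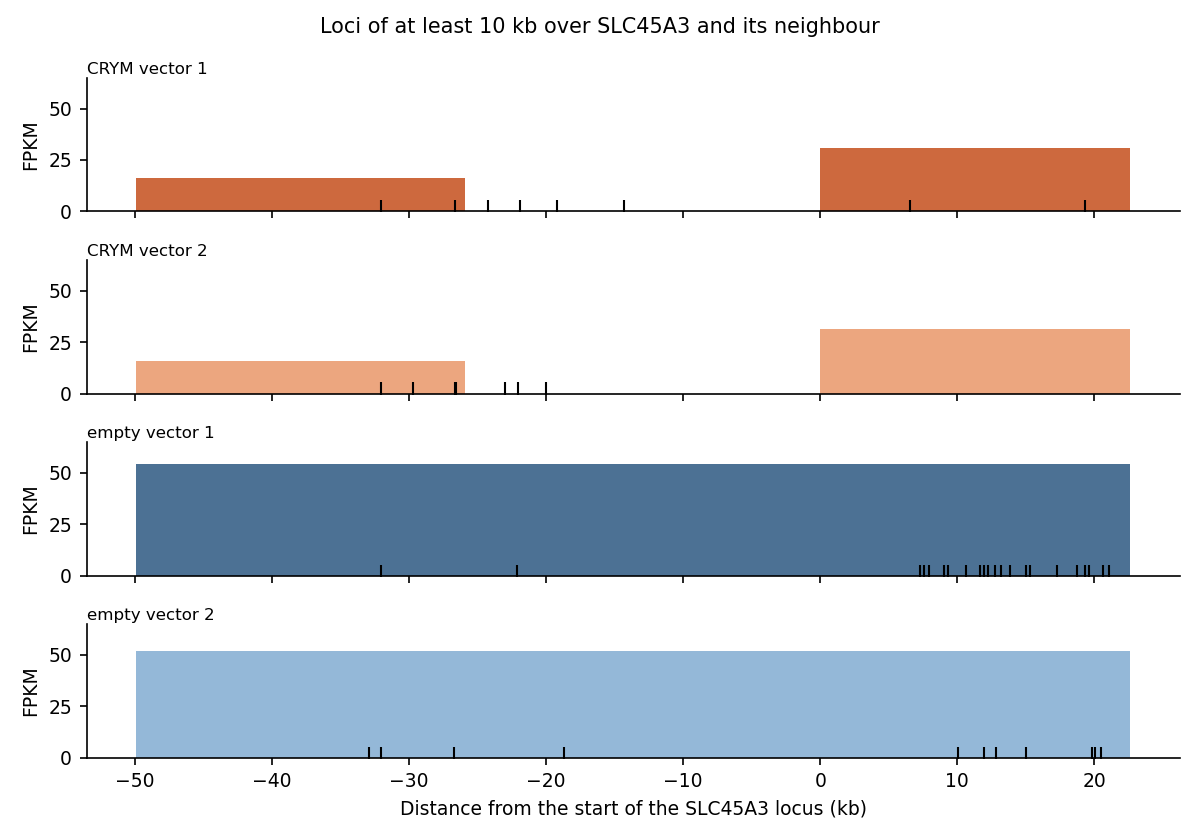
FPKM (bar height) of assembled loci of at least 10 kb against distance in kb from the start of the SLC45A3 locus, 1 panel per library, with shorter loci as ticks. CRYM vector libraries list 2 loci, at 16.3 and 31.0 and at 15.7 and 31.3 FPKM, and empty vector libraries list 1 merged locus at 54.2 and 52.1 FPKM.

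Among the intracellular regulators, FKBP5 and PMEPA1 fell while CAMKK2 and NDRG1 did not pass. FKBP5 encodes FKBP51, a co-chaperone in steroid receptor complexes with Hsp90. Its locus (hg19 chromosome 6, 35541362 to 35696360) had 16.8 and 17.0 FPKM in CRYM vector libraries, against 42.1 and 38.6 in empty vector libraries. Values within each group were close, and the lowest empty vector value was 2.28-fold above the highest CRYM vector value. The means were 16.9 ± 0.103 and 40.3 ± 2.47 FPKM (SD, n = 2 each), a 2.39-fold fall with a log2 difference of -1.21 (SE 0.0550) and a limma adjusted p of 0.00625.

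PMEPA1 encodes a membrane adaptor that recruits NEDD4-type ubiquitin ligases and dampens TGF-beta signalling. At its locus (hg19 chromosome 20, 56223448 to 56286592) it had 19.5 and 15.7 FPKM in CRYM vector libraries, against 35.3 and 41.6 in empty vector libraries. The groups were well apart, with means of 17.6 ± 2.68 and 38.4 ± 4.43 FPKM (SD, n = 2 each). It was 2.18-fold lower, with a log2 difference of -1.08 (SE 0.152) and a limma adjusted p of 0.0255. Tested without the filter on low values it had a limma adjusted p of 0.0534, within a range of 0.0221 to 0.101 over its alternatives.

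CAMKK2, a calcium-activated kinase upstream of AMPK, was the 1 tested gene with a positive difference. At its locus (hg19 chromosome 12, 121675289 to 121736111) it had 34.4 and 33.0 FPKM in CRYM vector libraries, against 32.7 and 26.1 in empty vector libraries. The values of the groups did not overlap but the lower CRYM vector value and the higher empty vector value were nearly equal, and their deposited intervals overlapped. The log2 difference was 0.20 (SE 0.131) with a limma adjusted p of 0.331, and it was between 0.04 and 0.36 with any 1 library left out.

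NDRG1, a stress-responsive cytoplasmic protein that androgen and hypoxia both induce, was the second most abundant of the genes in empty vector cells. Its locus (hg19 chromosome 8, 134249324 to 134314265) had 100.7 and 111.5 FPKM in CRYM vector libraries, against 135.1 and 157.2 in empty vector libraries. The CRYM vector values were the lower ones, by 1.21-fold to 1.56-fold over pairs of libraries. The means were 106.1 ± 7.67 and 146.1 ± 15.6 FPKM (SD, n = 2 each), and the deposited intervals of the groups did not overlap. The log2 difference of -0.46 (SE 0.107) had a limma adjusted p of 0.0610, with an unadjusted p of 0.0224, and did not pass.

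MAF, a basic leucine zipper transcription factor, was the 1 transcription factor among the genes. At its locus (hg19 chromosome 16, 79619740 to 79634611) it had 2.61 and 2.60 FPKM in CRYM vector libraries, against 4.46 and 4.41 in empty vector libraries. Replicates were nearly equal, with means of 2.60 ± 0.0115 and 4.43 ± 0.0318 FPKM (SD, n = 2 each). The fall was 1.70-fold, with a log2 difference of -0.59 (SE 0.0461) and a limma adjusted p of 0.0113.

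**Figure D3:**
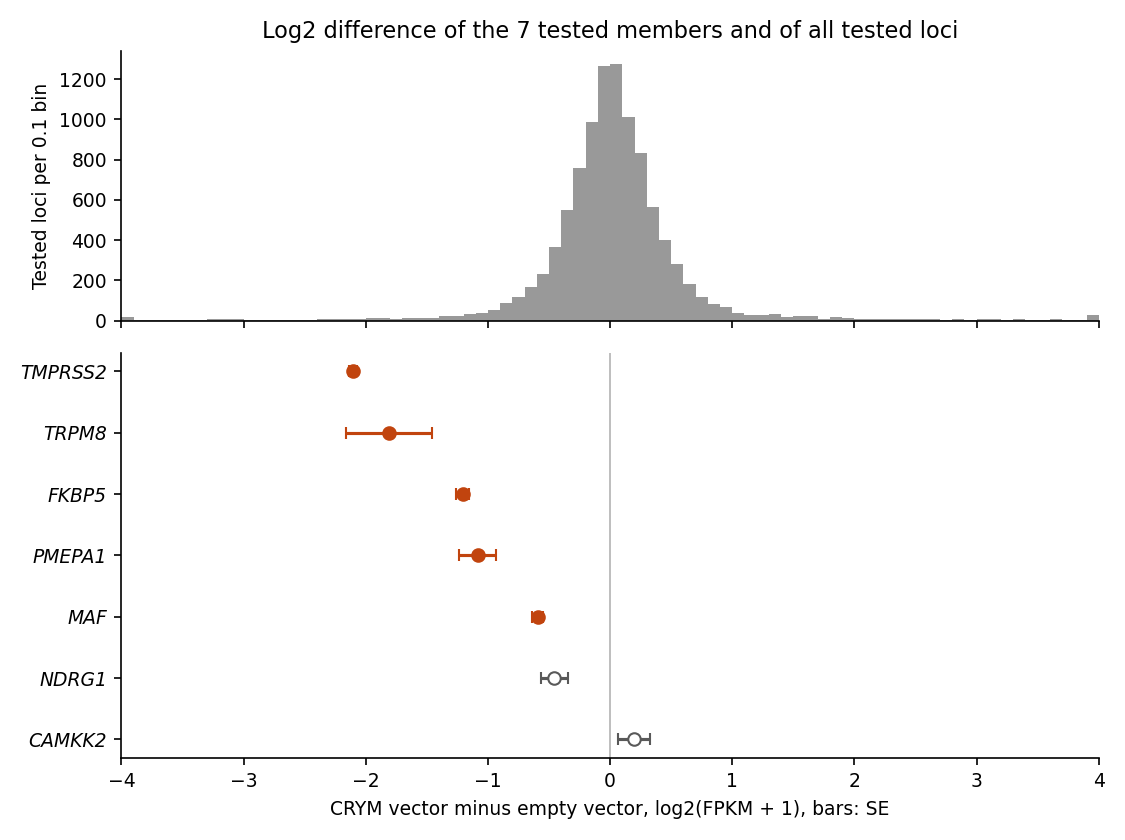
Upper panel, number of tested loci per 0.1 bin of the log2 difference, CRYM vector minus empty vector, with values past 4 in either direction in the outermost bins. Lower panel, the same difference with its SE for the 7 tested genes, filled where the limma adjusted p was under 0.05. TMPRSS2 at -2.10 and TRPM8 at -1.81 lie far into the lower tail, and CAMKK2 at 0.20 lies inside the main peak.

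The order of levels also differed. In CRYM vector cells the order by mean was NDRG1 (106.1 FPKM), TMPRSS2 (71.7), ABCC4 (42.8), CAMKK2 (33.7), SLC45A3 (31.1), PMEPA1 (17.6), FKBP5 (16.9), MAF (2.60), TRPM8 (1.83) and STEAP4 (0.0934). In empty vector cells, where SLC45A3 has no value of its own, it was TMPRSS2 (311.5 FPKM), NDRG1 (146.1), ABCC4 (72.9), FKBP5 (40.3), PMEPA1 (38.4), CAMKK2 (29.4), TRPM8 (9.20), MAF (4.43) and STEAP4 (0.178). FKBP5 and PMEPA1 were neighbours in both orders and did not differ beyond their spread in either. TMPRSS2 was above NDRG1 in both empty vector libraries and below it in both CRYM vector libraries.

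No read counts are in the tables, and fragment numbers implied by the deposited intervals did not always move with the FPKM. Read as 2 SD of counting error either way, an interval gives a number of fragments. That number is not a count of reads if the interval holds other error too. For TMPRSS2 these numbers were 1825 and 2709 in CRYM vector libraries, against 2998 and 2285 in empty vector libraries. The second empty vector library was the deeper one yet had the smaller number. The ratio at equal depth was 0.942, where the ratio of FPKM was 0.230, so the implied fragments did not fall with the FPKM. For FKBP5 the ratio at equal depth was 0.883, where the ratio of FPKM was 0.419. For PMEPA1 it was 0.602 and for MAF 0.727, smaller falls than in FPKM, and for TRPM8 it was 0.106, a larger one. For NDRG1 it was 1.08, the other direction from its FPKM ratio of 0.726, and for CAMKK2 it was 1.13. For HOXB13 the implied numbers were 2169 and 2210 in CRYM vector libraries and 2218 and 2234 in empty vector libraries, nearly equal although depth differed. Whether the intervals hold more than counting error was not tested. The ends of some loci differ between libraries, and whether transcript models differed between groups was not tested.

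Promoter sequence was available from RefSeq (GRCh38.p14, 250 bases before to 50 after the start site) for 8 of the 10 genes, not for TMPRSS2 and NDRG1. From these, 4 windows are shown as examples, those of 3 genes called lower and 1 that did not pass. The window of MAF, also called lower, is not shown, so these 4 do not compare the groups. FKBP5 lies at chr6:35728534-35728833, minus strand, PMEPA1 at chr20:57711423-57711722, minus strand, TRPM8 at chr2:233917123-233917422, plus strand and CAMKK2 at chr12:121296660-121296959, minus strand. Capitals mark the half-site of the androgen response element, AGAACA, and the TATA motif TATAAA, each searched on both strands.
FKBP5: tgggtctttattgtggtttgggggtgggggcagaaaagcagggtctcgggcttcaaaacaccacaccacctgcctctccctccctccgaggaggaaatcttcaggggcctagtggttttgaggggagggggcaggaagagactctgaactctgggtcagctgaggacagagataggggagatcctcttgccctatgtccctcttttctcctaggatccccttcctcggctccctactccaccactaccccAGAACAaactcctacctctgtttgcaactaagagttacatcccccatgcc
PMEPA1: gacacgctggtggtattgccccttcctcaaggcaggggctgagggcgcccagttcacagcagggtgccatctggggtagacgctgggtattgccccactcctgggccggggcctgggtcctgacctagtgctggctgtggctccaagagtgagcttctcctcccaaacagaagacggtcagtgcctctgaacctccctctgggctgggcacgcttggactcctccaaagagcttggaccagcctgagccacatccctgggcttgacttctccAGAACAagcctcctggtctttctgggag
TRPM8: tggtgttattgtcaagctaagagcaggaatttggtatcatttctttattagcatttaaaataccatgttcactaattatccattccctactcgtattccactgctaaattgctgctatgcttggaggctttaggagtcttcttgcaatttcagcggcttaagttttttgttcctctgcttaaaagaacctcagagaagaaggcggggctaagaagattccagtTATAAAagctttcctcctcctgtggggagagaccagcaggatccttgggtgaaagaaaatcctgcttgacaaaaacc
CAMKK2: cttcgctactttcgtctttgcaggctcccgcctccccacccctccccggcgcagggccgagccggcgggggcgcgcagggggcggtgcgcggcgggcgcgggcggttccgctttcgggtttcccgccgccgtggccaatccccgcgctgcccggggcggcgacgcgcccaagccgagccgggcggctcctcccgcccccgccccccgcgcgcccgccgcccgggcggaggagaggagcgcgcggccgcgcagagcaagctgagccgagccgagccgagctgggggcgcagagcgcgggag
The half-site was in 2 of the 8 windows, those of FKBP5, where it begins at the start site, and PMEPA1, where it begins 22 bases after it. It was in 14.9% of 27305 RefSeq promoter windows of the same length. The full androgen response palindrome, searched without mismatch, was in none of the 8, and TATAAA was in those of TRPM8 and MAF, against 12.0% of all windows. Of the genes called lower, the windows of FKBP5 and TRPM8 held 3 CpG dinucleotides each, that of PMEPA1 6 and that of MAF 16. Of the others, STEAP4 (18), SLC45A3 (26) and ABCC4 (47) were not in the test and CAMKK2 (52) did not pass. Not being in the test does not mean no fall. The mean of ABCC4 was 1.70-fold lower in CRYM vector cells, as was that of MAF, and SLC45A3 could not be compared. The median of all windows was 14. Whether the number of CpG goes with the fall was not tested. A match of letters is no evidence of binding, and these windows leave out the distal enhancers where most response elements lie.

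Of 44 other genes listed as androgen-induced, 6 had a name in the tables and 4 were tested, of which 2 were lower and none higher. Over all tested loci the shares were 17.7% lower and 15.7% higher. SPDEF, a luminal Ets factor, had 46.8 and 48.0 FPKM in CRYM vector libraries, against 86.9 and 84.5 in empty vector libraries (limma adjusted p = 0.00517). GNMT, a glycine methyltransferase, had 7.40 and 7.54 FPKM in CRYM vector libraries, against 10.7 and 10.0 in empty vector libraries (limma adjusted p = 0.0182). For both genes the CRYM vector values lay below the empty vector values without overlap, as they did at 35.3% of all tested loci. The ratio of implied fragments at equal depth was 0.985 for SPDEF, where the ratio of FPKM was 0.553, and 0.778 for GNMT, where it was 0.720. PART1, a prostate noncoding RNA, and RHOU had means of 1.23 and 7.24 FPKM in CRYM vector cells, against 1.46 and 7.35 in empty vector cells, and did not pass. RHOU was taken from a locus of 24194 bp in empty vector library 2 and of 11593 bp in the other libraries, so its values are not strictly alike. The median log2 difference of the 4 tested genes was -0.28.

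Of 12 genes listed as androgen-repressed, 3 were tested, all UGT2B paralogs on chromosome 4. All 3 were higher, where 15.7% of all tested loci were, by a median of 2.52 on the log2 scale. As members of 1 family they are not independent, they do not stand for the rest of the list, and the list was chosen with earlier results known. UGT2B11, a UDP-glucuronosyltransferase, had 6.95 and 6.74 FPKM in CRYM vector libraries, against 2.15 and 1.53 in empty vector libraries (limma adjusted p = 0.0139). Its locus had a different start in each library, with widths from 14781 to 15638 bp. Its implied fragments at equal depth had a ratio of 7.78, where the ratio of FPKM was 3.72. The other members were UGT2B15 and UGT2B17, which inactivate androgen by glucuronidation and are 2 of the 14 genes listed for androgen metabolism, both higher. UGT2B15 had 54.8 and 56.6 FPKM in CRYM vector libraries, against 5.34 and 5.72 in empty vector libraries (limma adjusted p = 0.00252). UGT2B17 had 55.4 and 54.6 FPKM in CRYM vector libraries, against 8.42 and 9.07 in empty vector libraries (limma adjusted p = 0.00253). For UGT2B15 and UGT2B17 the implied fragments at equal depth had ratios of 10.1 and 6.32, close to the FPKM ratios of 10.1 and 6.29. The UGT2B genes are close paralogs, so how reads were divided among them is uncertain. Of 16 factors and coregulators HOXB13 was the 1 tested and was lower, with a log2 difference of -0.19 (limma adjusted p = 0.0275). Its implied fragments at equal depth had a ratio of 1.12, the other direction from its FPKM ratio of 0.876. Of 12 steroid receptor chaperones none had a name in the tables.

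The loci with the profile over 4 libraries most like that of TMPRSS2, by Euclidean distance of centred log2(FPKM + 1) among 793 named protein-coding loci, were S100P, NPPC, AC079354.2, AMTN and GPRIN1. S100P, a calcium-binding protein, was the nearest at a distance of 0.514, with 12.0 and 13.4 FPKM in CRYM vector libraries, against 39.4 and 42.4 in empty vector libraries. The others had under 3 FPKM in every library, and AC079354.2 and GPRIN1 were listed at 0 in CRYM vector libraries. Nearest to FKBP5 were RAC3, SLPI, FGF21, E2F1 and GPRIN1, at distances of 0.115 to 0.155. RAC3 had 35.2 and 38.7 FPKM in CRYM vector libraries, against 93.6 and 88.4 in empty vector libraries.

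**Figure D4:**
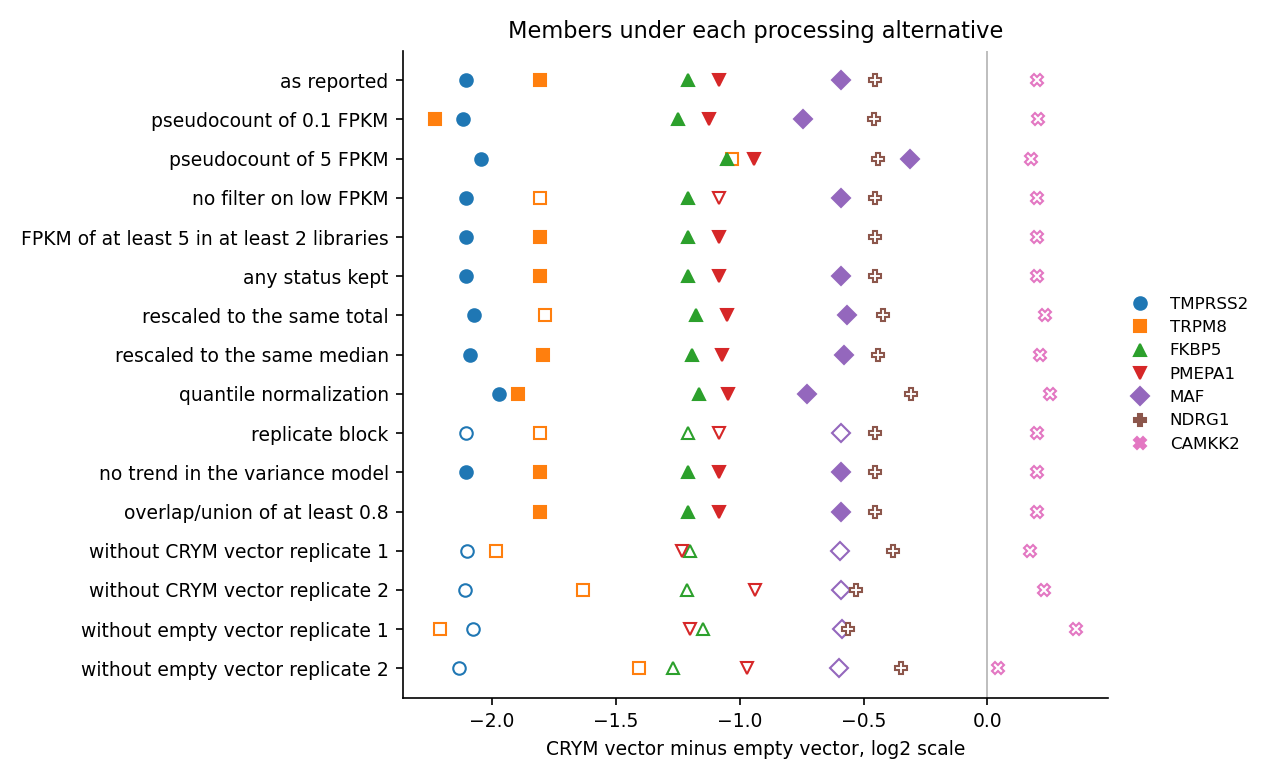
Log2 difference, CRYM vector minus empty vector, of the 7 tested genes under each processing alternative, filled where the limma adjusted p was under 0.05. TMPRSS2, FKBP5, TRPM8, PMEPA1, MAF and NDRG1 stay below 0 and CAMKK2 above 0 wherever they could be tested, and no symbol is filled with the replicate block or with 1 library left out.

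Each of the 7 tested genes kept its direction under every alternative in which it was tested. TMPRSS2 dropped out at an overlap over union of at least 0.8, and MAF at a filter of 5 FPKM. With any 1 library left out, in turn CRYM vector 1, CRYM vector 2, empty vector 1 and empty vector 2, no gene passed. The log2 difference of TMPRSS2 was then -2.13 to -2.08 (limma adjusted p 0.0571 to 0.0685), that of FKBP5 -1.27 to -1.15 (0.0587 to 0.0714) and that of MAF -0.60 to -0.59 (0.0708 to 0.0807). That of PMEPA1 was -1.23 to -0.94 (limma adjusted p 0.0802 to 0.101) and that of TRPM8 -2.21 to -1.41 (0.0759 to 0.147). These fits keep 1 residual degree of freedom and treat the lone library as varying like the other group.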

How the data were processed

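Polyadenylated RNA of LNCaP cells was made into 4 stranded libraries and sequenced from 1 end over 50 bp, per the labels' protocols. The submitters' processing notes name Cufflinks 2.2.1, Cuffdiff, TopHat2 2.1.1 and Bowtie2 2.2.9 with hg19 and GRCh37, without their roles. The use of strand in counting is not stated there. Each library has 1 deposited table of FPKM per locus, with interval bounds and a status, per the file headers. Positions are printed counted from 1.

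Loci were joined by identical position, and the 10 genes, CRYM and the listed genes by symbol or overlap over union of at least 0.4. CRYM has no symbol in the tables and was taken by position, as the 1 locus over 10 kb without a name that starts between the starts of ANKS4B, which it overlaps, and CTD-2547E10.3, at the same position in all 4 libraries. Log2(FPKM + 1) was fitted with limma 3.58.1 in R 4.3.3 (2 groups, empirical Bayes with a trend, two-sided, Benjamini-Hochberg over 10095 loci, threshold 0.05). The pseudocount of 1 FPKM understates changes of low genes. Folds compare mean FPKM. Depth is known only relative to empty vector library 1, from the value of 1 read at loci of 60 to 62 bp, where 100% of values were whole multiples within 0.02. Simulated data were used to test the fit. The deposited intervals are given per library, and what they cover besides counting error is not stated. The genes and lists were chosen with earlier results of these data known. Named genes were the 10 genes, CRYM, from each list the 4 largest differences past the threshold (2 highest levels where none passed), the 2 highest of each marker list (1 gene is not reported here), and the 5 nearest profiles to TMPRSS2 and FKBP5. Also named, outside this rule, were the listed genes PART1, RHOU, SNAI2, UGT2B28 and NTS. Python 3.11.15 with numpy 2.4.6 and pandas 2.3.3 was used for the join.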

Additional observations from a re-analysis of the deposited data

How the results depend on the processing

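Over all tested loci 3366 passed (1583 higher, 1783 lower), and 5 of the 7 tested genes did, all lower. Without the filter on low FPKM 1872 of 26486 loci passed, and 3 of 8 genes. Rescaling to the same total gave 1403 loci, and 4 genes. With the replicate block limma called 0 loci and 0 genes (3822 loci and 6 genes at an unadjusted p under 0.05), and TMPRSS2 had an adjusted p of 0.0570, where its range over alternatives was 0.00165 to 0.0685. The labels do not say that replicate numbers pair across groups, and same-numbered libraries' deviations correlated at 0.0361 over loci. With 1 library left out limma called 0 to 8 loci (3380 to 3705 at an unadjusted p under 0.05) and 0 to 0 genes (5 to 8). The fits with the block or with 1 library left out keep 1 residual degree of freedom, and the cause of the drop was not tested. For the other alternatives the counts stayed within 1.5 times. The 3 rescalings moved the median locus to between -0.0032 and 0.04. Of the tested genes' values under alternatives, 74 kept their side of the threshold, 29 lost the call and 0 reversed.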

Other observations

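Some listed genes were too low to be tested. SNAI2, an inducer of epithelial to mesenchymal transition listed among the androgen-induced genes, had 0.223 and 0.185 FPKM in CRYM vector libraries, against 0.727 and 0.781 in empty vector libraries, and the deposited intervals of the groups did not overlap. UGT2B28, listed as androgen-repressed, had 0.909 and 1.19 FPKM in CRYM vector libraries, against 0.481 and 0.459 in empty vector libraries, also without overlap of intervals. It has near-identical paralogs, so its level is uncertain. NTS, the neurotensin precursor, had 0.106 and 0.0843 FPKM in CRYM vector libraries, against 0.0151 and 0.0551 in empty vector libraries, with overlapping intervals. HLA-DRA, the 1 immune marker of 5 with a name in the tables, was tested and had 1.95 and 1.56 FPKM in CRYM vector libraries, against 2.40 and 2.29 in empty vector libraries, without a call (limma adjusted p = 0.131).

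Inside the SLC45A3 span the tables also list short assembled loci, 2 in CRYM vector library 1 and 0 in CRYM vector library 2. Empty vector library 1 lists 20 and empty vector library 2 lists 7.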
